A study of Homo sapiens with 8 samples.

Results

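Guanylate-binding proteins (GBPs) and apolipoprotein L (APOL) proteins are 2 small families of host defence proteins, and the genes described here are GBP1, GBP2, APOL1, APOL2, APOL3 and APOL6. They were taken as all probe sets whose only gene symbol in the platform annotation is one of these names, which gave 8 of the 22277 probe sets on the array, 3 for the GBP genes and 5 for the APOL genes. The 6 genes are among 11963 that a probe set names alone. RNA of 4 established cell lines of human ovarian cancer, CAOV-3, OVCAR-3, SKOV-3 and DOV-13, was hybridised to 8 Affymetrix arrays. Each line gave 1 array of cells that had pI:pC added to their medium and 1 array of untreated cells. pI:pC (polyriboinosinic:polyribocytidylic acid) is an artificial double-stranded RNA, which cells take for the RNA of a virus. All cells were grown in the same serum-containing medium. The labels give neither the concentration nor the exposure time of an array. They also do not say whether an array held 1 culture or a pool, so within a line there is no replicate and no test, and p-values over the lines measure the spread between lines. Values are log2 expression levels after RMA. The median probe set lay between 6.19 and 6.30 on every array.

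GBPs are large GTPases of the dynamin superfamily. They assemble on the membranes of intracellular bacteria and parasite vacuoles, where GBP1 helps to recruit the lipopolysaccharide sensor caspase-4, and their genes are classical targets of interferon gamma that also respond to type I interferon. APOL proteins insert into membranes: APOL1 is secreted into blood lipoproteins and lyses trypanosomes, while the other family members stay inside the cell. Both gene families lie in clusters of neighbouring copies in the genome.

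The interferon-stimulated response element (ISRE), to which interferon-activated factors bind, was looked for in promoter windows of 250 bases before and 50 bases after the gene start (RefSeq, GRCh38.p14). Only GBP1 among the members had a window to search, and it is printed. No window was available for GBP2, APOL1, APOL2, APOL3 or APOL6, so the element was not looked for in them. GBP1 lies on the minus strand and its window is chr1:89065159-89065458. Capitals mark the match to the ISRE core (GAAA, any 2 bases, GAAA), here on the strand opposite to the gene.
GBP1: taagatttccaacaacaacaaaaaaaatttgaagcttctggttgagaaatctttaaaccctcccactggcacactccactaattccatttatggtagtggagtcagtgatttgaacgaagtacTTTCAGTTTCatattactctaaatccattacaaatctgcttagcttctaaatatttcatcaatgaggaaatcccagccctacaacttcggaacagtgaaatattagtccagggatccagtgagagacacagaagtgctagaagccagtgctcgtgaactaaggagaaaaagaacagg
The match lay 127 to 118 bases before the start. On either strand 3.57% of the 35116 windows of this length held the ISRE core. Gamma-activated sites were looked for only in the form TTCNNNGAA, which was in 7.66% of the windows and had no match in the GBP1 window. Looser forms of this site were not looked for, so whether the window holds one was not tested. The same 10 letters stood in the window of the neighbouring family member GBP3, and GBP4 held a variant, shown as stretches of 30 bases to let the flanks be compared.
GBP1, chr1:89065316-89065345, minus strand: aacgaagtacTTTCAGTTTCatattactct
GBP3, chr1:89022845-89022874, minus strand: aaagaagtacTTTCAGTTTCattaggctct
GBP4, chr1:89198927-89198956, minus strand: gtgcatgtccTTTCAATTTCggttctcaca
In GBP3 the match began 3 bases into the transcribed part, and in GBP4 it spanned the start. The expression of GBP3 and GBP4 was not analysed here. A match in these letters is a description and not a binding site.

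GBP1 was far higher in CAOV-3 and OVCAR-3 than in the other lines, with pI:pC and untreated, and these lines also had its largest differences. By the probe set 202270_at its level was 8.29 with pI:pC against 7.61 untreated in CAOV-3, and 8.50 against 7.94 in OVCAR-3. SKOV-3 had 3.92 with pI:pC against 3.80 untreated, and DOV-13 had 4.35 against 4.21. In SKOV-3 and DOV-13 the probe set stood no higher than percentile 14.3 of its array. On the log2 scale pI:pC minus untreated was 0.68 for CAOV-3 and 0.56 for OVCAR-3, and for SKOV-3 and DOV-13 it was 0.12 and 0.14. In bulk RNA, more responding cells and more RNA per cell cannot be told apart.

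The second GBP1 probe set, 202269_x_at, gave the same order of lines by difference. Its level was 8.20 with pI:pC against 7.37 untreated in CAOV-3, and 8.12 against 7.52 in OVCAR-3, which is 1.78-fold and 1.51-fold higher. DOV-13 had 5.01 with pI:pC against 4.76 untreated, and SKOV-3 had 4.77 against 4.61. In OVCAR-3 only 0.464% of all probe sets had a larger difference, and in CAOV-3 1.09%. The suffix x marks a set of probes of which some also match other transcripts, so for this set the near copies in the GBP family cannot be told apart from GBP1.

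Over the 4 lines GBP1 did not pass the test. The mean difference was 0.46 ± 0.31 (SD, n = 4 lines) for 202269_x_at and 0.37 ± 0.29 for 202270_at, higher in 4 of 4 lines for both. In limma's test, with lines as blocks, the adjusted p was 0.996 for each, at unadjusted p of 0.00417 and 0.0091. In the exact two-sided sign-flip test over the 4 pairs 2 of the 16 arrangements were as extreme, which is the smallest p that 4 pairs allow and lies above 0.05.

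**Figure D1:**
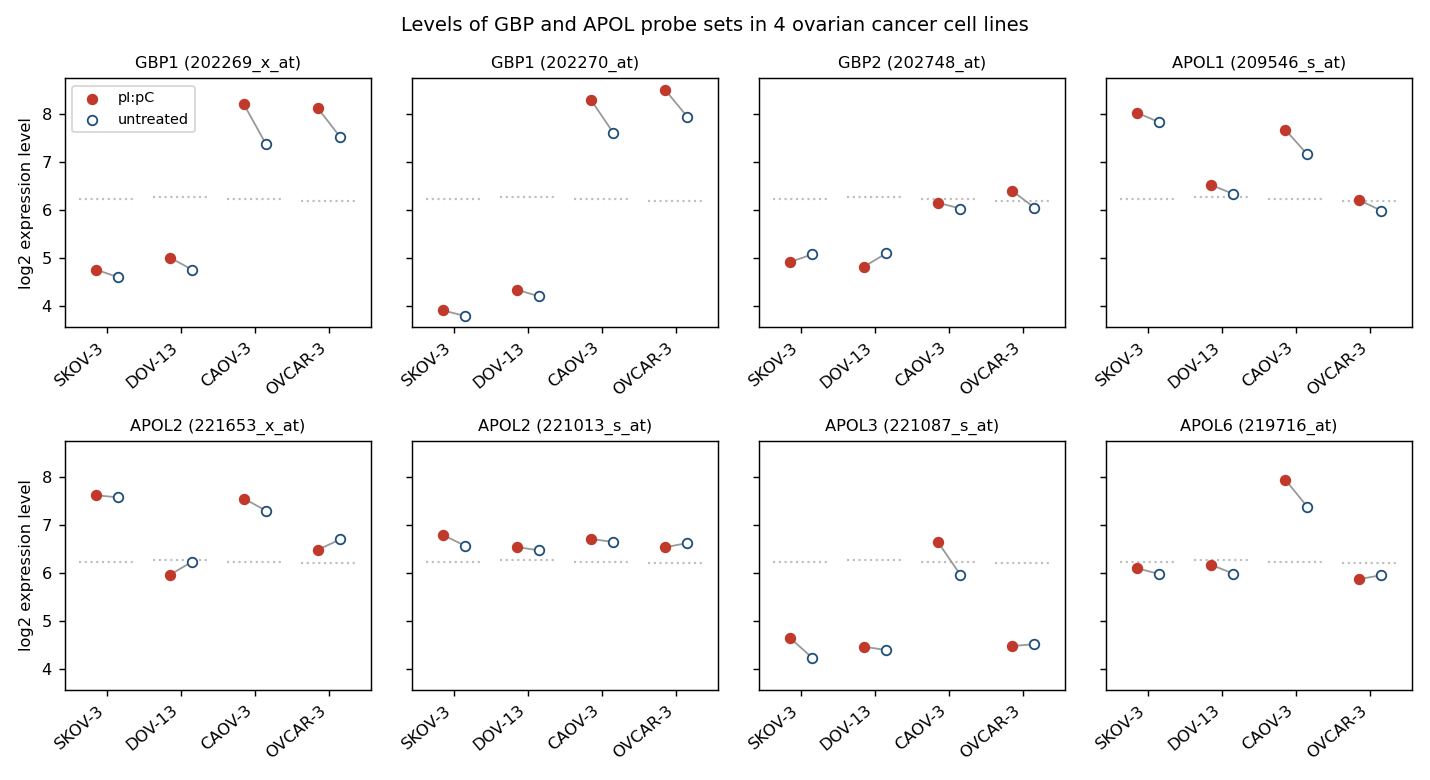
Log2 expression level (vertical axis) of each GBP and APOL probe set in 4 ovarian cancer cell lines (horizontal axis), 1 array per point, with pI:pC as filled points and untreated as open points; dotted lines mark the median probe set of the array pair. GBP1 lies above 7.3 in CAOV-3 and OVCAR-3 and at or under 5.015 in the other lines, and APOL6 and APOL3 are highest in CAOV-3.

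GBP2, the other measured GBP gene, shared its split between the lines but had smaller differences. Its level was 6.40 with pI:pC against 6.05 untreated in OVCAR-3, and 6.15 against 6.03 in CAOV-3. SKOV-3 had 4.92 with pI:pC against 5.08 untreated, and DOV-13 had 4.82 against 5.10. It was thus higher with pI:pC in CAOV-3 and OVCAR-3 and lower in SKOV-3 and DOV-13. The mean difference was 0.01 ± 0.28 (SD, n = 4 lines; limma adjusted p = 0.998), and it changed sign with quantile normalization (-0.0048) and with centring on the median (-0.004). With pI:pC the level stood at or above the median of its array pair in OVCAR-3 alone. Its values in SKOV-3 and DOV-13 were dim, between percentile 24.0 and 30.2 of the array. The other values under the median lay close to it, between percentile 47.0 and 48.8.

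APOL1, the trypanosome-lytic member, was higher with pI:pC in each line by a similar amount, except in CAOV-3. Its level was 8.03 with pI:pC against 7.83 untreated in SKOV-3, and 6.52 against 6.34 in DOV-13. It was 7.68 with pI:pC against 7.16 untreated in CAOV-3, and 6.21 against 5.99 in OVCAR-3. The differences were 0.20, 0.19, 0.52 and 0.22 in that order, and the one in CAOV-3 stood apart from the rest. Of all probe sets, 12.6% had a larger difference in SKOV-3, 15.1% in DOV-13, 2.49% in CAOV-3 and 7.34% in OVCAR-3. The mean difference was 0.28 ± 0.16 (SD, n = 4 lines; limma adjusted p = 0.996, unadjusted p = 0.00689). Without CAOV-3 it was 0.20, and it stayed positive in every fit that left out 1 line.

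APOL3, an intracellular member whose protein dissolves bacterial membranes, and APOL6, an intracellular member linked to cell death, were highest in CAOV-3. APOL6 had a level of 7.94 with pI:pC against 7.37 untreated in CAOV-3. In the other lines it lay between 5.87 and 6.17 with pI:pC and between 5.95 and 5.99 untreated. APOL3 had a level of 6.64 with pI:pC against 5.96 untreated in CAOV-3, and 4.65 against 4.24 in SKOV-3. OVCAR-3 had 4.48 with pI:pC against 4.52 untreated for APOL3, and DOV-13 had 4.46 against 4.39. For both genes the CAOV-3 arrays lay above all others, and the array with pI:pC was the highest of the 8. The share of all probe sets with this order was not counted. In the limma comparison of lines given below, 46.4% to 47.4% of all probe sets passed between CAOV-3 and each other line.

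APOL6 had a difference of 0.57 in CAOV-3 and of -0.08 in OVCAR-3, while SKOV-3 showed 0.12 and DOV-13 showed 0.18. APOL3 had 0.68 in CAOV-3 and -0.04 in OVCAR-3, while SKOV-3 showed 0.41 and DOV-13 showed 0.07. Both genes thus had a small negative difference in OVCAR-3, where both GBP1 probe sets were among the largest differences. In SKOV-3 1.14% of all probe sets had a larger difference than APOL3, whose level there was under the median probe set. The mean difference was 0.20 ± 0.27 for APOL6 and 0.28 ± 0.33 for APOL3 (SD, n = 4 lines; limma adjusted p = 0.996 for each). Without CAOV-3 these means were 0.074 and 0.147.

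The probe sets of APOL2, another intracellular member, disagreed. By 221013_s_at the level was nearly the same everywhere, between 6.53 and 6.79 with pI:pC and between 6.47 and 6.64 untreated, and the groups overlapped. By 221653_x_at it was 7.62 with pI:pC against 7.57 untreated in SKOV-3, and 7.55 against 7.29 in CAOV-3. In DOV-13 this set was at 5.96 with pI:pC against 6.23 untreated, and in OVCAR-3 at 6.48 against 6.70. SKOV-3 and CAOV-3, the lines where 221653_x_at was high, were also the lines where APOL1 was high. The mean differences were 0.07 ± 0.13 for 221013_s_at and -0.05 ± 0.24 for 221653_x_at (SD, n = 4 lines; limma adjusted p = 0.996 for each), and in DOV-13 the sets had opposite signs, 0.07 and -0.27. The mean of 221013_s_at was 0.0155 without SKOV-3 and 0.121 without OVCAR-3. Since 221653_x_at carries probes that match other transcripts, its levels cannot be assigned to APOL2 alone.

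**Figure D2:**
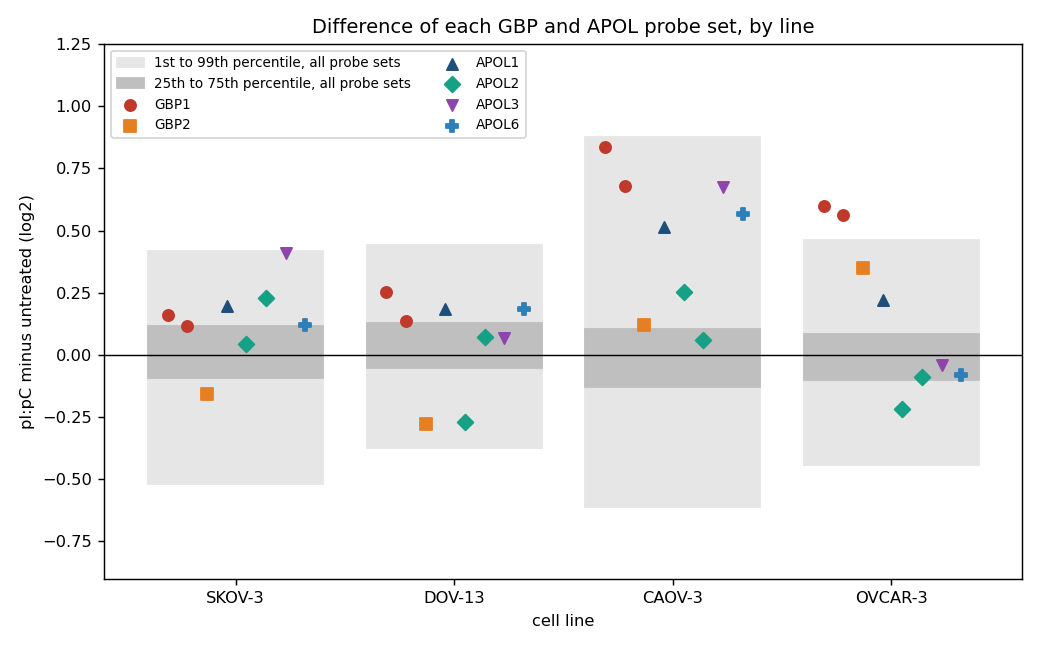
Difference between pI:pC and untreated (log2, vertical axis) of each GBP and APOL probe set in each line (horizontal axis); light and dark bars span the 1st to 99th and the 25th to 75th percentile of all probe sets in that line. Both GBP1 points lie above the light bar in OVCAR-3, and 5 points lie above 0.5 in CAOV-3, none above the light bar there.

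Line by line, a probe set was counted as higher when pI:pC exceeded untreated by 1 or more (log2) and the higher level reached the median probe set of the array pair. By this rule 0 of the 8 were counted in any line. Of all 22215 probe sets without the array controls, 0.725% were counted in CAOV-3, 0.144% in OVCAR-3, 0.0180% for DOV-13 and 0.00450% for SKOV-3. No difference of the 8 was lower than -0.28. With a difference of at least 0.5, 5 of 8 were counted as higher in CAOV-3, where the share of all probe sets was 2.21%. They were both GBP1 sets, APOL3, APOL6 and APOL1. In OVCAR-3 both GBP1 sets were counted, against 0.446% of all, and in SKOV-3 and DOV-13 0 were, against 0.113% and 0.342%. The 8 had a median difference of 0.54 in CAOV-3 and 0.09 in OVCAR-3, and of 0.14 (SKOV-3) and 0.11 (DOV-13), against medians of all probe sets between -0.013 and 0.036.

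Over the lines limma called 0 of 22215 probe sets at an adjusted p under 0.05, so that 0 of the 8 stands beside a background of 0%. At an unadjusted p under 0.05, 4 of the 8 were higher, both GBP1 sets, APOL1 and APOL3, against 2.35% of all probe sets. APOL3 lay near this limit, with an unadjusted limma p of 0.0468 that was 0.0573 after quantile normalization, 0.0578 after median centring, 0.145 without SKOV-3 and 0.188 without CAOV-3. A positive difference in every line was seen for 3 of 8, both GBP1 sets and APOL1, against 6.74% of all. The mean difference was positive for 7 of 8 with a median of 0.24, against a median of 0.0065 over all probe sets. The 2 sets of GBP1 measure 1 gene and are not independent.

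For 7 of the 8 probe sets the untreated levels of the lines spanned a wider range than the largest difference between pI:pC and untreated, the exception being APOL2 by 221013_s_at. Levels were compared with the same limma fit, taking both arrays of a line together, and 29 of the 48 comparisons of 8 probe sets over 6 pairs of lines passed at an adjusted p under 0.05. Of all probe sets, 34.8% passed for SKOV-3 minus DOV-13, 46.8% for SKOV-3 minus CAOV-3 and 47.1% for SKOV-3 minus OVCAR-3. DOV-13 minus CAOV-3 called 46.4%, DOV-13 minus OVCAR-3 46.0% and CAOV-3 minus OVCAR-3 47.4%, so that passing is common. The fit takes the treatment to act alike in every line, whereas the differences above varied between lines. The pI:pC and the untreated array of a line stood in for its replicates. The errors and p-values of these comparisons thus rest on how the differences varied between lines, not on replicate cultures.

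For GBP1 by 202270_at the SKOV-3 minus CAOV-3 contrast was -4.09 ± 0.15 (SE, adjusted p = 6.56e-07) and the DOV-13 minus OVCAR-3 contrast was -3.95 ± 0.15 (adjusted p = 7.51e-07). Since this probe set stood between percentile 5.41 and 14.3 in SKOV-3 and DOV-13 and background signals were not used, the sizes of these contrasts are not exact and may be understated. Neighbours in the order were not separated, with SKOV-3 minus DOV-13 at -0.42 (adjusted p = 0.0709) and CAOV-3 minus OVCAR-3 at -0.27 (adjusted p = 0.189). GBP2 showed the same split at a smaller size, with SKOV-3 minus OVCAR-3 at -1.23 ± 0.15 (SE, adjusted p = 0.000285), and likewise did not separate SKOV-3 from DOV-13 or CAOV-3 from OVCAR-3.

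The APOL genes followed other orders. APOL1 was highest in SKOV-3, then CAOV-3, DOV-13 and OVCAR-3, and all 6 pairs of lines passed, down to DOV-13 minus OVCAR-3 at 0.33 ± 0.11 (SE, adjusted p = 0.0362). For APOL6 and APOL3 CAOV-3 was higher than each other line, with CAOV-3 minus OVCAR-3 at 1.75 ± 0.15 (SE, adjusted p = 3.72e-05) and 1.80 ± 0.17 (adjusted p = 6.37e-05), and the other lines were not separated from each other. APOL2 by 221013_s_at passed in 0 of 6 pairs, and by 221653_x_at in 5 of 6.

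**Figure D3:**
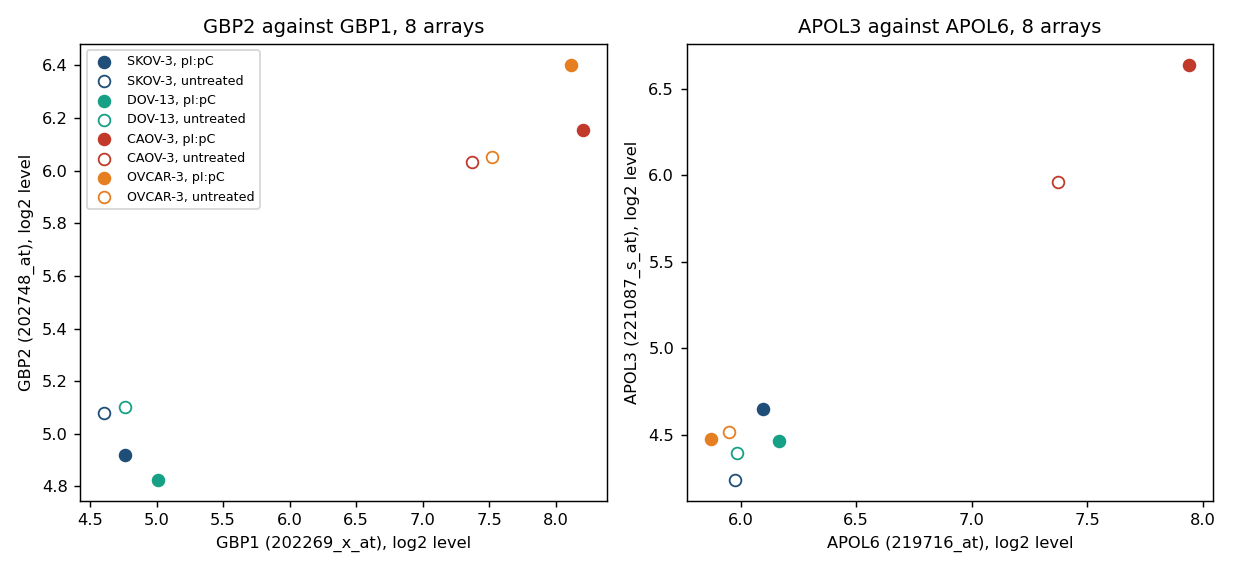
Log2 level of GBP2 against GBP1 (left) and of APOL3 against APOL6 (right) on the 8 arrays, coloured by line, with pI:pC as filled and untreated as open points. GBP1 is drawn by 202269_x_at, for which near copies in the GBP family cannot be told apart from GBP1. On the left the arrays of CAOV-3 and OVCAR-3 form 1 cluster and those of SKOV-3 and DOV-13 another, while on the right the CAOV-3 arrays stand alone.

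Genes with a pattern like that of each member were looked up among 11963 genes, each by its brightest probe set. For GBP1 this was 202269_x_at and for APOL2 221653_x_at, both with probes that match other transcripts. The likenesses below thus cannot be assigned to GBP1 or APOL2 alone, and 221013_s_at of APOL2 was not used. By Euclidean distance over the 4 differences, the nearest genes to GBP1 were PSMB8, an immunoproteasome subunit (0.172), LCN2, which encodes the iron-withholding lipocalin (0.195), and S100A8, a calcium-binding neutrophil and epithelial protein (0.256). PSMB8 had differences of 0.75 in CAOV-3 and 0.54 in OVCAR-3, next to 0.15 for SKOV-3 and 0.12 for DOV-13. MX2, an antiviral GTPase, was among the 3 nearest to APOL3 (0.247), after ERVMER34-1 (0.188) and FAM13A (0.23). HYOU1, an endoplasmic reticulum chaperone (0.066), SHFL, an antiviral inhibitor of translation (0.098), and AFF4 (0.109) were nearest to APOL6. For APOL1 they were ENO3 (0.058), PLCL2 (0.093) and HMGA1 (0.124), for GBP2 INVS (0.077), GPC4 (0.087) and C21orf91 (0.102), and for APOL2 ATP10B (0.046), KLK8 (0.092) and CEP250 (0.097). Small distances are common where all 4 differences are small.

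By Pearson correlation of the level over the 8 arrays, which come from 4 lines and so mostly compare lines, the nearest to GBP1 were the epithelial junction gene TJP3 (0.996), the antiprotease gene SLPI (0.992) and the histone gene H2BC5 (0.992). GBP2 was nearest to NME5 (0.985), SPINT1 (0.981) and H2BC5 (0.977). APOL6 was nearest to OLR1 (0.993), RNASE1 (0.992) and the complement gene C1R (0.992), and of these OLR1 and C1R had differences of 2.12 and 1.36 in CAOV-3. APOL3 was nearest to TESC (0.993), INSL4 (0.992) and LONRF3 (0.992), APOL1 to MED15 (0.989), RNF8 (0.982) and NMT1 (0.980), and APOL2 to RRP7A (0.979), GPN2 (0.978) and MAP3K6 (0.976). GBP1 and APOL2 were again taken by 202269_x_at and 221653_x_at, with the same limit.

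Genes of the pathways around the GBP and APOL families had differences of unequal size, and 0 passed over the 4 lines (limma adjusted p of at least 0.996 for each). Among the other interferon-induced GTPases of the dynamin superfamily, MX1 had a level of 11.30 with pI:pC against 9.31 untreated in CAOV-3, and 10.26 against 6.33 in OVCAR-3. Its differences of 1.99 and 3.92 exceeded those of GBP1. MX2 had 0.79 in CAOV-3 and 0.18 in OVCAR-3.

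Interferon gamma targets other than the GBP genes had a median difference of 1.21 in CAOV-3 and 0.39 in OVCAR-3, while it was 0.16 for SKOV-3 and 0.03 for DOV-13, and 6 of 11 were counted as higher by at least 1 in CAOV-3. The largest were those of the T cell attractant CXCL11 with 6.13 in CAOV-3, CXCL10 with 3.87, the adhesion molecule gene ICAM1 with 1.80 and the peptide transporter gene TAP1 with 1.63. Of the 11, 10 were higher with pI:pC in CAOV-3. CXCL9 went the other way, with -0.15 in CAOV-3 and -0.25 in OVCAR-3, and IDO1 had 0.26 in CAOV-3. IFNG itself stayed between 4.29 and 4.43 with pI:pC and between 4.25 and 4.48 untreated, far under the median probe set. The 8 measured genes of the interferon gamma receptor path had a median difference of 0.17 in CAOV-3 and -0.03 in OVCAR-3, and 0 were counted in any line. By the same rule 0.725% of all probe sets were counted as higher in CAOV-3 and 0.144% in OVCAR-3. The receptor genes IFNGR1 and IFNGR2 had 0.59 and 0.54 in CAOV-3, whereas the kinase gene JAK1 had -0.16, the inhibitor gene SOCS1 -0.15 and CIITA, which drives MHC class II genes, -0.08. IRF1, a factor that drives GBP transcription, had 0.29 in CAOV-3, 0.17 for DOV-13, 0.15 for SKOV-3 and 0.12 in OVCAR-3.

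The 6 genes of the type I interferon path had a median difference of 0.48 in CAOV-3 and 0.46 in OVCAR-3, where 2 were counted as higher by at least 1 in each, and its members differed in sign. The receptor gene IFNAR1 had a negative difference in 4 of 4 lines, from -0.38 to -0.02, as had 1059 of all 22215 probe sets. Its level lay under the median probe set on every array, between 5.26 and 5.55 with pI:pC and between 5.49 and 5.74 untreated. IFNAR2, the other receptor gene, had -0.16 in CAOV-3 and -0.12 in OVCAR-3, and the kinase gene TYK2 had 0.16 and -0.06. IRF9, a subunit of the factor that binds ISREs, had 2.11 in OVCAR-3 and 0.81 in CAOV-3. IRF7, which drives interferon gene transcription, had 1.29 in OVCAR-3 and 1.16 in CAOV-3, and USP18, which ends interferon signalling, had 0.98 and 1.81. In SKOV-3 and DOV-13 the differences of IRF9, IRF7 and USP18 lay between -0.21 and 0.12. For 10 genes of the TNF and NF-kB path, which also induces APOL genes in some cells, the median was 0.15 in OVCAR-3 and 0.75 in CAOV-3. TNFAIP3 had 1.69, NFKB2 1.502 and NFKBIA 1.09 in CAOV-3.

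The caspase-4 and pyroptosis path, in which GBP1 acts, had a median of -0.05 in CAOV-3 and 0.04 in OVCAR-3 over 10 genes, and 0 were counted in any line. CASP4 was at 8.32 with pI:pC against 8.18 untreated in CAOV-3, and 6.81 against 6.72 in OVCAR-3. CASP1, an inflammatory caspase, had the largest difference of the list in CAOV-3, 0.75. Of 4 genes for prenylation and the processing of prenylated proteins such as GBP1 and GBP2, 0 were counted, with medians between 0.0003 and 0.15. Since 0.725% of all probe sets were counted as higher in CAOV-3 and 0.144% in OVCAR-3, a count of 0 is usual in lists this short.

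Genes next to the families were examined to see whether a whole neighbourhood differed. Of 5 neighbours of the GBP cluster and 7 relatives and neighbours of the APOL cluster, 0 were counted in any line. Their medians were 0.25 and -0.02 in CAOV-3, and -0.12 and 0.08 in OVCAR-3. Of all probe sets, 0.725% were counted as higher in CAOV-3 and 0.144% in OVCAR-3. A count of 0 among so few genes thus does not show whether a neighbourhood differed. APOL5, the other measured APOL gene, was dim on every array, between 4.92 and 5.38 with pI:pC and between 4.85 and 5.12 untreated.

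**Figure D4:**
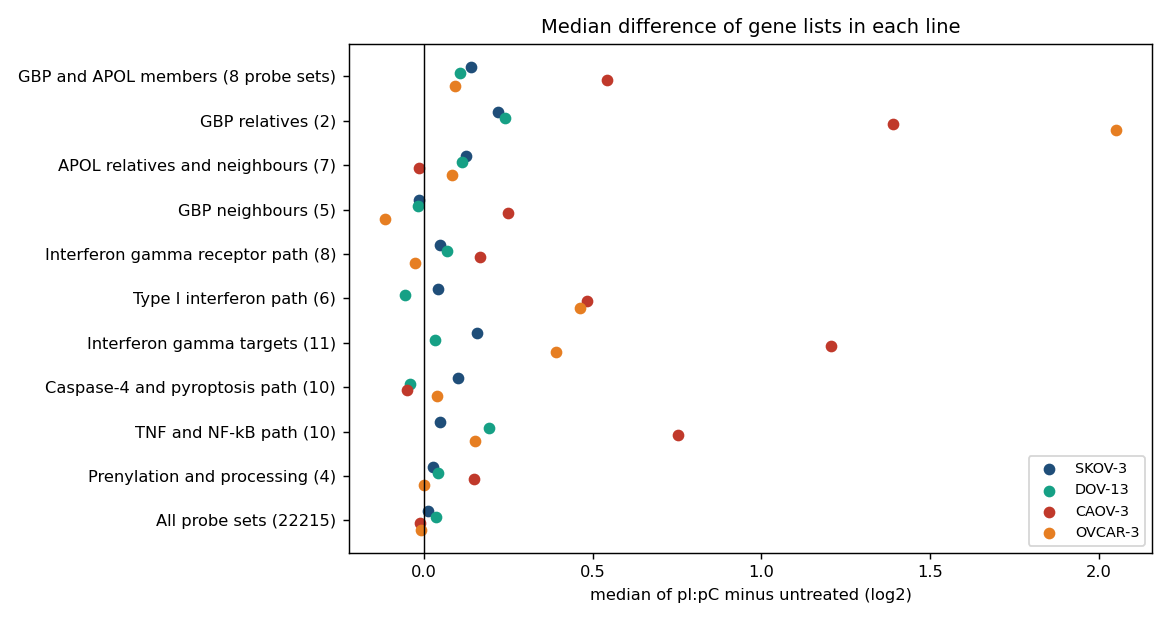
Median difference between pI:pC and untreated (log2, horizontal axis) of the 8 GBP and APOL probe sets, of each gene list (number of measured genes in brackets; the GBP relatives are MX1 and MX2) and of all probe sets, 1 point per line. The 8 have a median of 0.54 in CAOV-3, between the interferon gamma targets at 1.21 and all probe sets near 0.

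All 6 epithelial carcinoma markers were measured. KRT8 and KRT18 were at or above 10.53 on every array, whereas EPCAM was 5.94 with pI:pC and 5.42 untreated in DOV-13 and MUC16 was at or under 5.38 outside OVCAR-3. Of the markers of other cells, the leukocyte gene PTPRC stayed between 4.11 and 4.41 on all 8 arrays and the endothelial gene CDH5 was highest in DOV-13, at 6.02 with pI:pC and 5.43 untreated. The other endothelial genes did not share this, with PECAM1 between 5.31 and 5.58 and VWF between 5.53 and 5.96 over the 8 arrays. Of the fibroblast genes, COL1A1 lay between 7.13 and 7.56, PDGFRB between 5.37 and 5.78 and COL3A1 between 4.04 and 4.39. The monocyte gene CD14 was at 6.15 with pI:pC against 7.06 untreated in CAOV-3, and its part in the CAOV-3 results was not tested. The other leukocyte genes measured, CD3E and ITGAM, lay between 5.34 and 6.13 on all arrays.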

How the data were processed

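Total RNA was hybridised as biotin-labelled cRNA to 8 Affymetrix arrays, per the labels' protocols. The authors deposited 1 log2 level per probe set and array. Per the submitters' processing notes the tool was RMA, whose version is not given in the sources used here. RMA compresses differences of dim probe sets, and background signals were not used here, so the number of arrays and the level limit the precision. Probe sets were named from the supplied platform annotation (19064 with 1 symbol, 1043 with several, 2108 with none here, 62 array controls left out), and 0 symbols changed through the gene identifier. No gene coordinates of the array are given.

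All 22215 probe sets were fitted with limma (version 3.58.1, R 4.3.3), lmFit and eBayes with the cell line as a block, two-sided, p-values adjusted after Benjamini and Hochberg over the whole table, a threshold of 0.05, 3 residual and 4.59 prior degrees of freedom. The cell line, given in the labels, pairs the arrays: deviations from the group means correlated at 0.936 to 0.965 within lines. A gene in a list stands for its probe set with the highest mean. The comparison of lines was added after the values were seen. The fit was tested on simulated data. The members, lists and alternatives were chosen with earlier results of these data known. Named genes are all members and the 3 nearest by each likeness measure (correlation among genes with an SD of at least 0.5). Up to 4 counted genes per list were named by the largest difference. IFNG, IFNGR1, IFNGR2, JAK1, SOCS1, CIITA, IRF1, IFNAR1, IFNAR2 and TYK2 were named after their values were seen. So were CASP4, CASP1, MX2, IRF9, CXCL9, IDO1, APOL5 and the markers. Promoter sequences are from RefSeq, and a window was available for 1 of 6 members. The planned comparison of protein sequences was not run.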

Additional observations from a re-analysis of the deposited data

Results flagged for a closer look

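In 5 of the 24 sets of 4 values, all with CAOV-3 as the outlying line, 1 line stood far from the rest. The rule is set to mark about 1 in 20 such sets by chance alone. The share of all probe sets that it marks was not counted, so whether 5 is more than usual was not tested. Between CAOV-3 and each other line, 46.4% to 47.4% of all probe sets passed the limma comparison of levels. The level sets of a gene share their line and are not independent. The difference of APOL1 in CAOV-3 was 0.5157, with the next at 0.2196 in OVCAR-3. APOL3 in CAOV-3 stood apart at 6.6379 with pI:pC and at 5.9621 untreated, where the next highest levels were 4.6491 and 4.5167. APOL6 in CAOV-3 stood apart at 7.9414 with pI:pC and at 7.3745 untreated, where the next highest levels were 6.1684 and 5.985.

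In some probe sets lines had differences of opposite sign, each from 1 array pair, so that the contrast between lines was not tested. GBP2 had -0.2765 in DOV-13 and 0.3505 in OVCAR-3. APOL2 by 221653_x_at had -0.2704 in DOV-13 and 0.2549 in CAOV-3, and by 221013_s_at -0.0868 in OVCAR-3 and 0.2301 in SKOV-3. APOL3 had -0.0389 in OVCAR-3 and 0.6758 in CAOV-3, and APOL6 had -0.0808 in OVCAR-3 and 0.5669 in CAOV-3.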

How the results depend on the processing

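The count of 0 calls among the 8 probe sets, and of 0 among all, held in the fits without the cell line as a replicate block (smallest adjusted p among the 8 of 1), with the level filter (5 of the 8 tested), 1 probe set or the mean of probe sets per gene, quantile normalization, median centring, eBayes with trend and robust, and without each line (0 to 0 calls; smallest adjusted p among the 8 of 0.724 without SKOV-3). The line counts at a difference of at least 1 stayed at 0 with no minimum level and at a difference of at least 2, and were 5 in CAOV-3 and 2 in OVCAR-3 at a difference of at least 0.5. Quantile normalization shifted no difference by more than 0.063 and centring none by more than 0.046, and neither turned the sign of any of the 32. The mean of GBP2 turned negative with quantile normalization (-0.0048) and centring (-0.004) and ranged over the fits without 1 line between -0.105 (without OVCAR-3) and 0.104 (without DOV-13), with -0.028 without CAOV-3. That of APOL2 by 221653_x_at ranged between -0.147 (without CAOV-3) and 0.028 (without DOV-13), with 0.010 without OVCAR-3, and was 0.0112 with the mean of probe sets; the cause was not tested. The 29 comparisons of lines that passed were 28 with quantile normalization or centring and 29 with trend and robust.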
